A study of Mus musculus with 6 samples.

Results

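The genes described here are 31 genes of the unfolded protein response, listed by name with no rule on their values. Earlier results of these data were known when they were chosen. The list holds chaperones and folding enzymes of the endoplasmic reticulum (ER) and the stress sensors in its membrane. It also holds the transcription factors these sensors activate and genes of ER-associated degradation. Each gene was read from its brightest probe set, by the mean over all 6 arrays, among the 18193 genes that the platform annotation names with a single symbol. All 31 were on the array, and 30 passed the filter on dim signal and were among the 12571 genes tested, the exception being Chac1.

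CD8 T cells had been sorted from tumours of MCA-205, a fibrosarcoma line of the mouse, in male C57BL/6 animals that carry Eomes-GFP, in which green fluorescence reports Eomes. Eomes is a T-box factor that shapes effector and memory fates of these cells. Mice of both groups had received 250 ug of anti-OX40, against a costimulatory receptor, on days 12 and 16 and 200 ug of anti-CTLA-4, against an inhibitory one, on days 12, 14 and 16, with treatment begun at a tumour size of 50 to 80 mm2, and tumours were taken on day 19. Cells with reporter signal (Eomes+, 3 arrays) were compared with cells without it (Eomes-, 3 arrays). The design text speaks of 3 independent experiments, but no label says which arrays shared one or how many animals went into each, so a p-value here weighs a difference against the scatter of these 6 arrays and no wider one. Both fractions come from treated mice, and no untreated group was analysed here.

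Secreted and membrane proteins fold in the ER, and when unfolded protein accumulates there, the sensors IRE1 (Ern1), PERK (Eif2ak3) and ATF6 (Atf6) signal to the nucleus. IRE1 splices the Xbp1 transcript into the form that encodes an active transcription factor, PERK slows translation and favours that of Atf4, and ATF6 is cut in the Golgi to release its own transcription factor domain. Their targets fold proteins (Hspa5, Hsp90b1), retrieve misfolded ones for destruction (Herpud1, Edem1) or, under lasting stress, favour cell death (Ddit3, which encodes CHOP). T cells use the pathway when they begin to secrete cytokines and granules, and XBP1 acts in the terminal differentiation of effector CD8 T cells.

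Some of these genes carry in the promoter a sequence known to be recognised by ATF6 and XBP1. Members were listed by name, and no promoter sequence was read to choose them. The list does hold known targets of the sensors, however. The shares of members with such elements are therefore not independent of that choice, and they describe the list only. The ER stress response element (ERSE) was searched on both strands as CCAAT and CCACG separated by 9 bases, in RefSeq windows of build GRCm38.p6 that run from 250 bases before to 50 after each gene's start. Of the 27 members with such a window, 8 held it, whereas 0.137% of the 27025 genes with a window did (0.119% of all 32851 windows). The sequences are written 5′ to 3′ on the strand that reads CCAAT first, with both parts of the element in capitals.
Hspa5, chr2:34772015-34772053, plus strand: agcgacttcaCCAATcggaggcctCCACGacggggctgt
Hsp90b1, chr10:86705628-86705666, minus strand: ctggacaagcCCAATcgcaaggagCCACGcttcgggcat
Hsp90b1, chr10:86705523-86705561, plus strand: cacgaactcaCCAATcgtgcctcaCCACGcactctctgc
Calr, chr8:84847065-84847103, plus strand: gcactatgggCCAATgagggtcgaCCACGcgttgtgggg
Canx, chr11:50325790-50325828, minus strand: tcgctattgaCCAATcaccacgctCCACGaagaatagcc
Pdia6, chr12:17266481-17266519, plus strand: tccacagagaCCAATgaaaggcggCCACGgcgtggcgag
Dnajc3, chr14:118937817-118937855, plus strand: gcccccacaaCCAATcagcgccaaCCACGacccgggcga
Creld2, chr15:88819510-88819548, minus strand: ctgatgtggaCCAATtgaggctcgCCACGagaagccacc
Syvn1, chr19:6046522-6046560, plus strand: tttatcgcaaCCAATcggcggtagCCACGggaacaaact

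In Hspa5 the element begins 65 bases before the start of the gene. A second form, ERSE-II (ATTGG and CCACG with 1 base between them, added after the first search), was in the windows of Herpud1 and Dnajb11 and in 0.0444% of all genes with a window. The element bound by ATF4 with C/EBP partners, searched as TGATGNAA, was in the windows of 4 of the 27 members against 4.50% of all genes. These 4 were Asns, Chac1, Trib3 and Herpud1. By role, Asns, Chac1 and Trib3 were grouped as targets of PERK and ATF4, and Herpud1 under ER-associated degradation. That grouping does not say that Herpud1 is no target of ATF4. The Herpud1 match lay at chr8:94386306-94386334 on the minus strand. The core of the XBP1 element, TGACGTGG, was in 0 of the 27 members and in 0.714% of all genes. The matches describe letters in these windows and not binding. Below, capitals mark the fixed bases of each element.
Herpud1, chr8:94386367-94386397, plus strand, ERSE-II: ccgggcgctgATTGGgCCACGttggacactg
Dnajb11, chr16:22857842-22857872, plus strand, ERSE-II: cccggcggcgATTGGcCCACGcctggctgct
Asns, chr6:7693214-7693242, minus strand, ATF4 element: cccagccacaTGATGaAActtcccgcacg
Chac1, chr2:119351038-119351066, minus strand, ATF4 element: ctggcaggagTGATGcAAcggcagggaag
Trib3, chr2:152344029-152344057, plus strand, ATF4 element: cccgcccggcTGATGtAAacctgagctaa

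The arrays carried the markers of CD8 T cells together with RNA of other cells. Cd8a lay between 11.95 and 13.55 log2, Cd8b1 between 10.83 and 12.72 and Cd3e between 11.78 and 12.93, and 8 of 9 CD8 T cell markers had a lower mean in Eomes+ (Cd8a by -0.58 log2). By contrast Eomes, on whose reporter the cells were sorted, had a mean 3.15 log2 higher in Eomes+ (SE 0.64; limma unadjusted p = 0.00205, adjusted p = 1.00), without overlap. The mean of 18 tumour and fibroblast markers in the order of replicates 1, 2 and 3 was 9.36, 11.20 and 12.01 log2 for Eomes+ and 9.20, 10.37 and 12.18 for Eomes-, and 17 of 18 had a higher mean in Eomes+. The mean of 21 macrophage and monocyte markers was 8.95, 10.31 and 11.14 against 8.65, 9.65 and 11.13, with 18 of 21 higher. Of those lists Col1a1 lay between 10.01 and 13.07 log2, Col3a1 between 11.51 and 13.62, Lyz2 between 10.61 and 13.46 and Csf1r between 9.28 and 12.70. Of the CD4 and regulatory T cell markers, 5 of 6 had a lower mean in Eomes+ and were lower in all 3 pairs (median of the list -0.60 log2), with Cd4 between 6.74 and 7.58 log2 and Foxp3 between 7.25 and 8.19. The widest difference in that list, singled out after its values were seen, was that of Cd40lg (-1.70 log2; limma unadjusted p = 0.00788, adjusted p = 1.00). Of 12 B and plasma cell markers 5 were tested and 4 of these had a higher mean in Eomes+ (median 0.47 log2), with Cd79a between 5.80 and 6.34 log2 and, singled out in the same way, Ighm at 10.03, 10.42 and 9.01 against 9.10, 9.12 and 8.95. Jchain and Mzb1 of that list lay below the filter level on all 6 arrays (3.03 to 3.65 and 4.60 to 5.69 log2; the filter level was 5.70 to 5.72). Between the 3' and 5' Gapdh probe sets, whose gap widens in degraded RNA, the log2 gap was 1.88, 1.77 and 1.55 for Eomes+ and 1.54, 1.07 and 1.11 for Eomes-. The same gap for Actb was 0.08, 0.17 and 0.13 against -0.002, 0.05 and 0.11, with overlap. The part of these differences in the results below was not tested.

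Between Eomes+ and Eomes- cells the 30 tested genes of the unfolded protein response differed by between -0.52 and 0.67 log2. None passed the test over all genes (0 of 30 with limma at an adjusted p under 0.05), where 0% of all genes tested passed, and 0 had an unadjusted p under 0.05. Over all genes 2.04% had an unadjusted p under 0.05 with a lower mean in Eomes+ and 1.22% with a higher mean. By size, and by the brightest probe sets, the differences were led by Derl1 and Ern1, with a higher mean in Eomes+ cells. Xbp1, Eif2ak3 and Atf6 led those with a lower one. The direction of Ern1 depended on the probe set, and with the mean of all probe sets its difference was -0.39 log2. None exceeded 1 log2, but few genes of the whole table did (229 of the 12571 tested). In bulk samples such as these, fewer cells of a type and less RNA per cell cannot be told apart.

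The members leaned slightly to a lower signal in Eomes+ cells. Of the 30 tested, 20 had a lower mean, 66.7% against 52.6% of all genes, and their median difference was -0.11 log2 against -0.02 over all genes. The lean turned without Eomes- replicate 3, when 14 were lower and 16 higher with a median of 0.01 log2, and with arrays weighted by their quality it was gone (15 lower, 15 higher). The CD8 T cell and the CD4 and regulatory T cell markers also had lower means in Eomes+ for the most part (8 of 9 and 5 of 6), and their part in the lean was not tested. Nor was a lean particular to the members. In the other ER, stress and heat shock lists described below, 57.7% to 72.2% of the tested genes had a lower mean. Direction also depended on the probe set for some genes: of the 31, 9 had 1 probe set above the filter or none, 9 had several in the same direction and 13 had probe sets in both directions. Within the replicate numbers, 10 of 30 were lower in Eomes+ in all 3 pairs (17.3% of all genes) and 3 were higher in all 3 pairs (14.1%). The groups did not overlap for 3 members, Xbp1, Canx and Dnajb11, all lower in Eomes+ (4.66% of all genes), and for 0 members that were higher (3.05%).

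**Figure D1:**
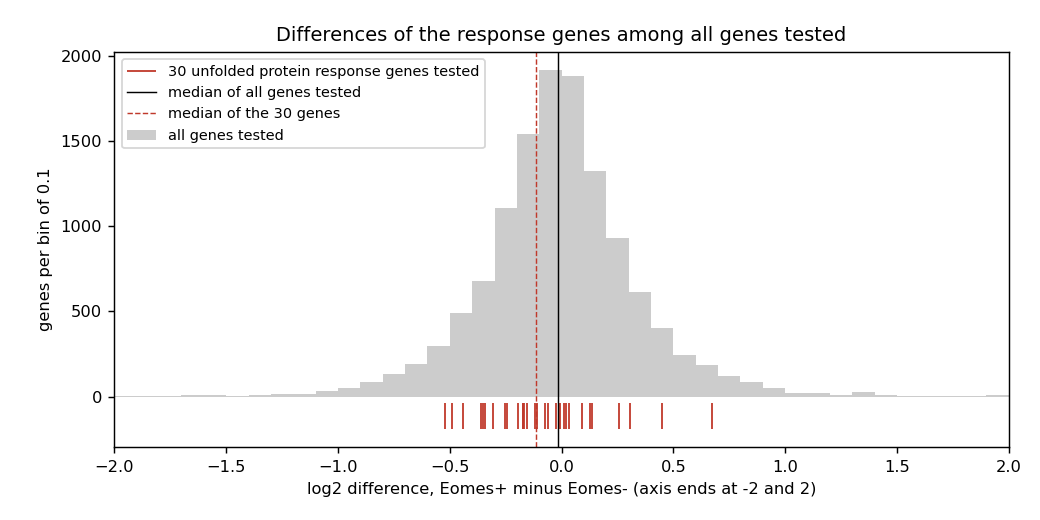
Log2 difference between Eomes+ and Eomes- means, as a histogram of the 12571 genes tested (grey, genes per bin of 0.1 log2) and as 1 red tick for each of the 30 unfolded protein response genes tested, with both medians as vertical lines. The red ticks lie between -0.52 and 0.67 log2, and their median is -0.11 log2 against -0.02.

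Among the sensors, Ern1 and Eif2ak3 differed in opposite directions by their brightest probe sets. Ern1, the IRE1 kinase and ribonuclease, was at 8.21, 7.69 and 8.45 log2 in Eomes+ replicates 1, 2 and 3 and at 7.54, 7.26 and 8.20 in Eomes-. It was higher in Eomes+ in every numbered pair, although the groups overlapped (difference 0.45 log2, 95% interval -0.40 to 1.29; limma adjusted p = 1.00). The other 3 Ern1 probe sets above the filter differed in the other direction, by -1.10, -0.30 and -0.62 log2, so the direction of Ern1 rests on the choice of probe set.

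Eif2ak3, which encodes the kinase PERK, was at 8.12, 8.33 and 7.37 log2 in Eomes+ and 8.60, 8.94 and 7.74 in Eomes-. It was lower in Eomes+ in every pair (by -0.49, -0.61 and -0.37 log2), and both arrays numbered 3 lay below the other 4. The mean difference was -0.49 log2 (95% interval -1.49 to 0.51), and the other 2 probe sets gave -0.34 and -0.45. Its spread between the numbers, 1.08 log2 between the highest and lowest number means, was larger than the difference between the fractions.

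Atf6, the membrane-bound transcription factor, was at 9.17, 9.57 and 9.11 log2 in Eomes+ and 9.80, 9.36 and 10.02 in Eomes-. Pairs 1 and 3 were lower in Eomes+ and pair 2 was higher (-0.63, 0.21 and -0.91 log2; mean -0.44, 95% interval -1.05 to 0.17). A second Atf6 probe set gave -0.53 log2, and the other one 0.13.

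Xbp1, the target of IRE1, was the member of smallest p. It was at 9.01, 8.50 and 8.94 log2 in Eomes+ and 9.34, 9.37 and 9.31 in Eomes-, so every Eomes+ array lay below every Eomes- array. The Eomes- arrays were close together (SD 0.03, n = 3) and the Eomes+ arrays less so (SD 0.28, n = 3). The mean was 1.44-fold lower in Eomes+ (difference -0.52 log2, SE 0.22, 95% interval -1.06 to 0.01; limma unadjusted p = 0.0549, adjusted p = 1.00). All 4 Xbp1 probe sets had a lower mean in Eomes+ (-0.52, -0.63, -0.10 and -0.39 log2), and in 1 of the other 3 the groups were separate too. The table has no separate value for the spliced form, so it gives the Xbp1 transcript and not the activity of IRE1.

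For Atf4 and Ddit3, the transcription factors of the PERK arm, the fractions overlapped. Atf4 was at 11.09, 11.16 and 11.34 log2 in Eomes+ and 11.17, 11.15 and 11.35 in Eomes-, a difference of -0.03 log2 with a 95% interval of -0.37 to 0.32. Ddit3 was at 9.35, 9.42 and 9.64 log2 against 9.10, 9.16 and 9.74, higher in Eomes+ in pairs 1 and 2 and lower in pair 3. Its difference was 0.13 log2 (95% interval -0.45 to 0.72). For both genes the arrays numbered 3 lay above the other 4.

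**Figure D2:**
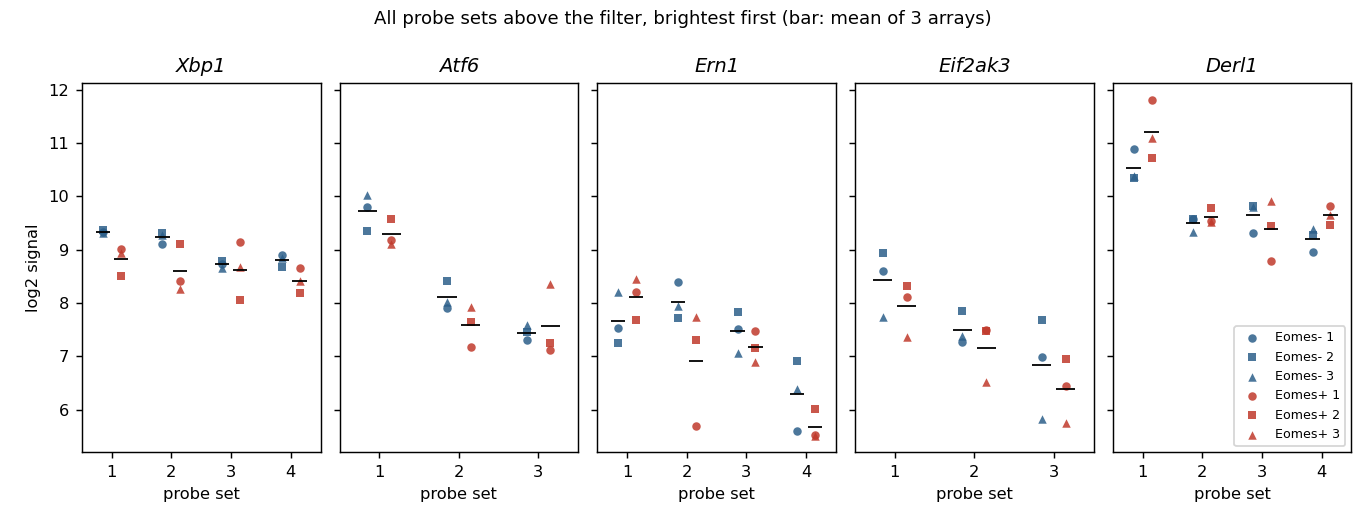
Log2 signal of every probe set above the filter for Xbp1, Atf6, Ern1, Eif2ak3 and Derl1, brightest first, on the 3 Eomes- arrays (blue) and the 3 Eomes+ arrays (red); marker shapes give the replicate number and black bars the group means. All 4 Xbp1 and all 3 Eif2ak3 probe sets have a lower Eomes+ mean, whereas those of Ern1, Atf6 and Derl1 go both ways.

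Of the 5 ER chaperones 4 had a lower mean in Eomes+. Hspa5, which encodes BiP, the main chaperone of the ER and the protein that holds the sensors inactive, was at 12.30, 12.45 and 12.64 log2 in Eomes+ and 12.51, 12.42 and 12.69 in Eomes-. The groups overlapped, and the difference was -0.07 log2 with a 95% interval of -0.40 to 0.25. Hsp90b1, the ER form of HSP90, was at 11.92, 12.08 and 12.40 against 12.20, 12.20 and 12.52, lower in Eomes+ in every pair (mean -0.17 log2, 95% interval -0.57 to 0.23). Hyou1, a large relative of HSP70 that exchanges the nucleotide of BiP, was higher in every pair by 0.08 to 0.12 log2, but its other 2 probe sets gave -0.09 and -0.92.

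The lectin chaperones Calr and Canx, which hold newly made glycoproteins, had lower means in Eomes+. Canx was at 10.66, 10.42 and 10.71 log2 in Eomes+ and 10.90, 10.75 and 10.87 in Eomes-, without overlap (difference -0.24 log2, SE 0.15; limma unadjusted p = 0.163). The next brightest Canx probe set differed in the other direction, by 0.14 log2. Calr overlapped between the fractions and differed by -0.12 log2 (95% interval -0.45 to 0.21), with 3 of 3 probe sets lower.

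Of the 6 co-chaperones and small ER proteins, 4 had a lower mean in Eomes+. Dnajb11, a J-domain partner of BiP, was at 11.11, 11.46 and 11.36 log2 in Eomes+ and 11.63, 11.59 and 11.48 in Eomes-, again without overlap (difference -0.25 log2, SE 0.14; limma unadjusted p = 0.128). Manf, a secreted ER stress protein that binds BiP, was at 10.51, 10.72 and 10.67 against 10.66, 11.18 and 11.13. It was lower in every pair (mean -0.36 log2, 95% interval -0.82 to 0.10; limma unadjusted p = 0.105), and the groups overlapped through Eomes- replicate 1 alone.

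The other co-chaperones varied more between arrays than between the fractions. Dnajb9, a J-domain protein that represses IRE1, had an SD of 0.82 log2 over the Eomes+ arrays and 0.38 over the Eomes- arrays (n = 3 each), and its pairs differed by 0.48, 0.49 and -0.59 log2. Sdf2l1, which keeps BiP clients soluble, differed by 0.51, 0.43 and -0.17 log2 in the pairs. Dnajc3, an inhibitor of PERK, and Creld2, an ER protein induced by stress, differed by -0.06 and -0.01 log2 in the mean, each with pairs in both directions.

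The protein disulphide isomerases, which form and rearrange disulphide bonds, all had lower means in Eomes+ cells. Pdia3, the partner of Calr and Canx, was at 12.04, 12.14 and 12.27 log2 in Eomes+ and 12.15, 12.33 and 12.55 in Eomes- (difference -0.19 log2, 95% interval -0.53 to 0.14). Pdia4 was at 9.0, 9.73 and 9.40 against 9.71, 9.59 and 9.87, lower in pairs 1 and 3 and higher in pair 2 (mean -0.34 log2, 95% interval -0.93 to 0.24). Pdia6, which switches off IRE1 and PERK, was lower in every pair by -0.11 to -0.19 log2. The groups overlapped for all 3 genes.

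Genes of ER-associated degradation went both ways, with 4 of 6 higher in Eomes+. Derl1, a membrane protein through which misfolded proteins leave the ER, was at 11.81, 10.72 and 11.09 log2 in Eomes+ and 10.88, 10.34 and 10.38 in Eomes-. It was higher in Eomes+ in every pair (0.92, 0.38 and 0.72 log2), with groups that overlapped because Eomes+ replicate 2 lay below Eomes- replicate 1. The mean was 1.59-fold higher (0.67 log2, SE 0.31, 95% interval -0.08 to 1.42; limma unadjusted p = 0.071, adjusted p = 1.00). The other Derl1 probe sets gave 0.12, -0.26 and 0.44 log2, the last without overlap. The brightest and the one at 0.44 are of a kind that can bind transcripts of several genes. Those at 0.12 and -0.26 are not of that kind. The brightest probe sets of Hyou1, Calr, Syvn1 and Trib3 are of the shared kind too. With probe sets that are not, the differences of Hyou1 and Trib3 turned to -0.09 and 0.18 log2. Those of Calr and Syvn1 kept their sign.

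Derl2, a relative of Derl1, was lower in every pair (-0.22, -0.08 and -0.61 log2; mean -0.30, 95% interval -0.80 to 0.19), although its dimmer probe set was higher by 0.95 log2 without overlap. Herpud1, a scaffold of the degradation complex, was at 8.71, 9.74 and 9.63 log2 in Eomes+ and 8.93, 8.96 and 9.27 in Eomes-. Its pairs 2 and 3 were higher in Eomes+ and pair 1 lower (mean 0.30 log2, 95% interval -0.47 to 1.08), and its other probe set gave the same mean difference to 2 decimals. Syvn1, the ubiquitin ligase HRD1, and Sel1l, its adaptor, differed by 0.02 and 0.03 log2 with pairs in both directions, and Edem1, which hands over glycoproteins for degradation, by -0.17 log2. Sec61b, a subunit of the translocation channel, differed by 0.01 log2 (95% interval -0.38 to 0.40).

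By their brightest probe sets, all 3 tested targets of PERK and ATF4 had a lower mean in Eomes+, but the other probe sets of Asns and Trib3 were higher by 0.01 and 0.18 log2. Asns, which encodes asparagine synthetase, was at 7.91, 9.05 and 9.90 log2 in Eomes+ and 8.53, 9.20 and 10.19 in Eomes-, so the arrays numbered 3 were highest and those numbered 1 lowest in both fractions. It was lower in Eomes+ in every pair (-0.62, -0.16 and -0.28 log2; mean -0.35, 95% interval -1.83 to 1.12). Chac1, a glutathione-degrading enzyme induced by ATF4, lay above the filter level on both arrays numbered 3 (6.23 log2 in Eomes+ and 6.74 in Eomes-) and below it on the other 4, and was not tested.

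Trib3, a pseudokinase that restrains ATF4, was at 7.23, 7.74 and 7.02 log2 in Eomes+ and 7.31, 7.30 and 7.70 in Eomes- and differed by -0.11 log2 with pairs in both directions. Ppp1r15a, the phosphatase subunit GADD34 that ends the PERK signal, was at 9.93, 9.95 and 9.37 against 9.75, 10.24 and 9.76 and differed by -0.17 log2 (95% interval -0.78 to 0.44). The groups overlapped for every gene of this role.

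**Figure D3:**
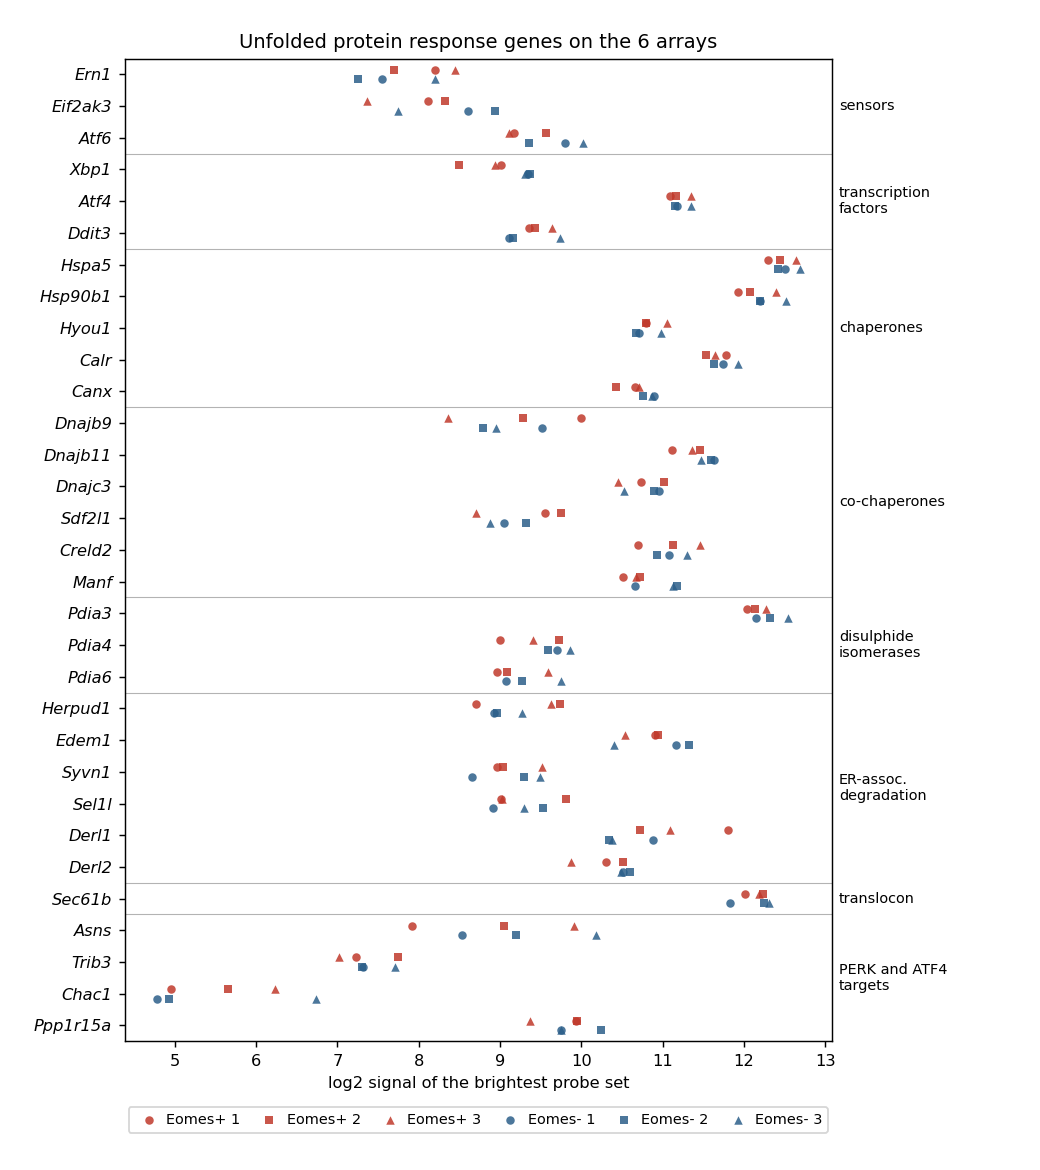
Log2 signal of the brightest probe set of each of the 31 genes on the 3 Eomes+ arrays (red) and the 3 Eomes- arrays (blue), grouped by role; marker shapes give the replicate number. Red and blue overlap for all but Xbp1, Canx and Dnajb11, and the arrays numbered 3 (triangles) stand apart for genes such as Asns and Chac1.

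**Figure D4:**
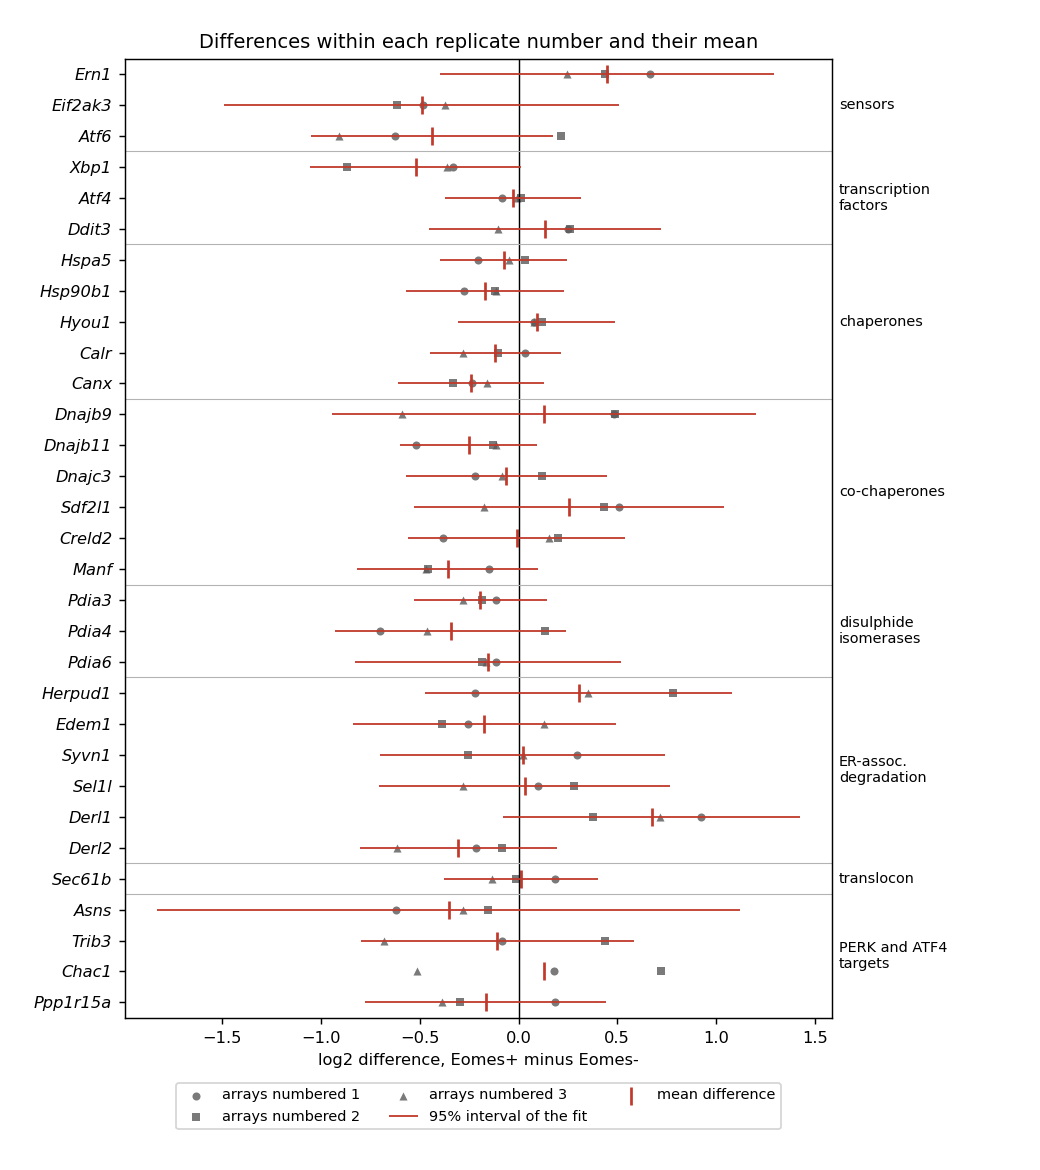
Log2 difference, Eomes+ minus Eomes-, within each replicate number (grey markers), with the mean difference (red tick) and the 95% interval of the limma fit (red line; none for Chac1, which was not tested). Every interval includes 0, and all 3 markers lie below 0 for 10 of the 30 genes tested and above 0 for 3.

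The members varied between replicate numbers no more often than other genes did. The range of the 3 number means was larger than the difference between the fractions for 25 of the 30 tested, 83.3%, near the 85.6% of all genes. Both arrays numbered 3 lay above the other 4 for 9 members, Atf4, Ddit3, Hspa5, Hsp90b1, Hyou1, Creld2, Pdia6, Syvn1 and Asns, 30% against 21.6% of all genes tested. Those 2 arrays lay below the other 4 for 4 members, Eif2ak3, Dnajc3, Sdf2l1 and Edem1, 13.3% against 20.6%. Of the 8 tested members with an ERSE in the promoter window, 5 were among the 9, compared with 3 of the 18 tested members that have a window and no ERSE, a pattern noticed after the values were seen.

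The arrays numbered 3 were also those with the highest tumour and macrophage marker means and the lowest CD8 T cell marker means. The mean of 9 CD8 T cell markers was 12.58, 12.33 and 11.31 log2 for Eomes+ and 12.70, 12.66 and 11.54 for Eomes-. When the level of those tumour and macrophage markers was added to the model, the Asns difference was -0.56 log2 (SE 0.20) in place of -0.35 (SE 0.62), and the limma unadjusted p was 0.0238 in place of 0.585. The same term left the Xbp1 difference at -0.51 log2 (limma unadjusted p = 0.0446) and that of Derl1 at 0.75 (limma unadjusted p = 0.00896). Asns, Xbp1, Derl1, Pdia3 and Manf were the 5 members at an unadjusted p under 0.05 with this term. Over all genes 1111 of 12571 reached that level with it, against 409 without it. With the marker term 0 members passed over all genes.

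**Figure D5:**
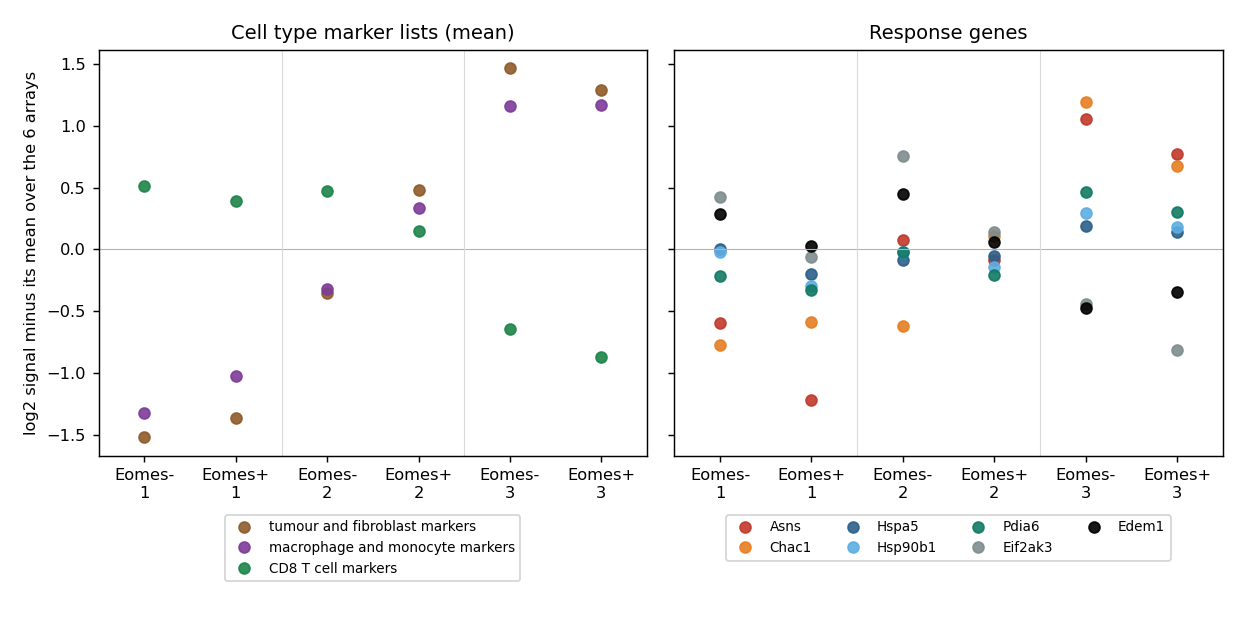
Deviation of each array from the mean of the 6 arrays (log2). Shown are the means of 3 marker lists (left) and 7 unfolded protein response genes (right). Arrays are ordered by replicate number, whose meaning the labels do not state. On both arrays numbered 3 the tumour and macrophage markers, Asns, Chac1, Hspa5, Hsp90b1 and Pdia6 are high, while the CD8 T cell markers, Eif2ak3 and Edem1 are low. The 7 genes shown all have both arrays numbered 3 above or below all others, which most of the tested members do not.

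Members with an ERSE in the promoter window lay in a narrow range. The 8 tested genes of this kind differed by between -0.24 (Canx) and 0.02 log2 (Syvn1), with 7 lower in Eomes+ and a median of -0.10 log2. The 18 tested members that have a window without the element differed by between -0.52 and 0.45 log2, with 11 lower and a median of -0.14. These counts describe the lists, and the difference between them was not tested. A range over 8 genes also tends to be narrower than one over 18. The dimmest tested members, Trib3, Ern1 and Eif2ak3, were among the 18.

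Other genes of ER folding, degradation, translocation and stress signalling differed from one another in direction too, and in each of these lists 0 genes passed over all genes. The counts of lower means below stand beside 52.6% of all genes tested, whose median was -0.02 log2. Of 26 tested folding genes 15 had a lower mean in Eomes+ (57.7%, median -0.02 log2). Ppib, an ER proline isomerase, was at 12.39, 12.57 and 12.60 log2 in Eomes+ and 12.75, 12.79 and 12.78 in Eomes-, separate groups with a difference of -0.25 log2 (SE 0.10; limma unadjusted p = 0.043). Cnpy3, a chaperone of Toll-like receptors, differed by -0.72 log2, Erp44, which retrieves immature proteins to the ER, by -0.39 and Fkbp2, another proline isomerase, by -0.56, each with overlapping groups and each lower in all 3 pairs.

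Of 19 tested degradation genes 13 were lower, with a median of -0.11 log2. Edem2, a mannosidase that starts the degradation of glycoproteins, was at 7.73, 7.96 and 7.06 log2 in Eomes+ and 8.30, 8.37 and 9.22 in Eomes-, separate groups with a difference of -1.04 log2 (SE 0.38; limma unadjusted p = 0.0294, adjusted p = 1.00), larger than that of any member. Nploc4, a cofactor of the segregase VCP, differed by -0.22 log2, while Ube2g2, a ubiquitin-conjugating enzyme, and Edem3 were higher by 0.37 and 0.49. Of 21 translocation genes 15 were lower (median -0.08 log2), the smallest p belonging to the signal peptidase gene Spcs3 (-0.28) and the oligosaccharyltransferase gene Ostc (-0.27), both with separate groups, and to Dad1 (0.15) and Ssr1 (-0.19), whose groups overlapped. With the mean of all probe sets the Ostc difference was 0.15 and that of Dad1 -0.07, so both turned. Dad1 was also at -0.29 with probe sets that are not of the kinds shared between genes.

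Of 17 tested sensors and regulators outside the member list 12 were lower (median -0.10 log2). Traf2, the adaptor that links IRE1 to kinase signalling and that also serves TNF receptors, was at 7.78, 7.61 and 7.04 log2 in Eomes+ and 8.55, 8.42 and 7.99 in Eomes-, separate groups with a difference of -0.84 log2 (SE 0.31; limma unadjusted p = 0.0304, adjusted p = 1.00). Creb3, a transcription factor anchored in the ER, had a difference of 0.33 log2 with separate groups, but -0.31 with the mean of all probe sets and -0.83 with probe sets of the specific kind. Atf6b, the relative of Atf6, differed by -0.49 and Eif2ak1, the kinase that answers haem shortage, by -0.34.

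Of 18 tested targets of ATF4 and CHOP outside the member list 13 were lower (median -0.15 log2). Ddit4, an inhibitor of mTORC1, was at 11.71, 11.29 and 11.32 log2 in Eomes+ and 11.92, 11.91 and 11.82 in Eomes- without overlap (difference -0.44 log2, SE 0.15; limma unadjusted p = 0.0262, adjusted p = 1.00). Slc3a2, the heavy chain of amino acid transporters, and Sesn2, a stress-induced inhibitor of mTORC1, differed by -0.32 and -0.34 log2, both with separate groups, and Phgdh, an enzyme of serine synthesis, by 0.39 with overlap. Ero1a stood in this list and in that of folding genes.

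Heat shock genes of the cytosol and mitochondria, which answer unfolded protein outside the ER, had 10 of 16 tested members lower and a median of -0.08 log2. The genes of smallest p were Hsph1 (-0.16 log2), St13 (-0.21), Dnaja1 (-0.10) and Hspa1b (0.32, but -0.04 without Eomes- replicate 2), all with overlapping groups. In this list and in that of translocation genes 0 genes had an unadjusted p under 0.05. In each of the folding, degradation, regulator and ATF4 target lists 1 gene did, of 26, 19, 17 and 18 tested. Ppib, Edem2, Traf2 and Ddit4 were these genes, each of smallest p in its list and lower in Eomes+ cells. Over all genes tested the share at that level was 2.04% with a lower mean and 1.22% with a higher one (limma).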

How the data were processed

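RNA of 3 Eomes+ and 3 Eomes- samples, grouped by their titles, was measured on microarrays. The authors deposited log2 values of 45101 probe sets, a scale read from their range of 1.68 to 14.95 since no header states it. The submitters' processing notes name Transcriptome Analysis Console and MAS5 with no roles. How probes were summarised is not given in the sources used. Array medians lay between 6.35 and 6.42 log2, so a shift common to most genes would not show. Precision is limited by the number of arrays.

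Of 45037 probe sets that are not controls, 34945 had 1 gene symbol, 932 several and 9160 none; only those with 1 were named, and 34741 were updated through a RefSeq table of GRCm38.p6. Probe sets above their array's 40th percentile on at least 3 arrays were kept (27766), and the brightest stood for each gene (12571 genes). The test was limma's (3.58.1, under R 4.3.3; lmFit, then eBayes with the trend option; two-sided), with the fraction as its only term. P-values were adjusted by Benjamini-Hochberg across the genes tested and called under 0.05. Intervals are 95% intervals of this fit. The fit was tested on simulated data.

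The members, gene lists and alternatives were chosen with earlier results of these data known. All members were named, the 4 genes of smallest p of each other pathway list, and of the marker lists Cd8a, Cd8b1, Cd3e, Cd4, Foxp3, Col1a1, Col3a1, Lyz2, Csf1r, Cd79a, Jchain and Mzb1. Whether replicate numbers pair the samples was checked by correlating deviations from group means over all probe sets (0.60, 0.10 and 0.63 for numbers 1, 2 and 3, the second at 0.0989 and so under the 0.1 required); labels leave the meaning of the numbers unstated, so no block was used. Alternatives changed the normalization, filter, probe set choice, pseudocount, variance model, array weights, a covariate for other cells' RNA, the replicate block and the arrays included. Protein sequences were not used here.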

Additional observations from a re-analysis of the deposited data

How the results depend on the processing

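Under all 22 alternatives 0 members passed over all genes (limma). Members at an unadjusted p under 0.05 numbered 4 with the replicate block (Pdia3, Xbp1 and Manf lower, Derl1 higher; adjusted p at least 0.185), 1 without the intensity trend (Xbp1), 6 with array weights, 5 with the covariate for other cells' RNA, and 0 to 1 with single arrays left out (Herpud1 without Eomes+ replicate 1, Derl1 without Eomes+ replicate 2, Manf without Eomes- replicate 1). Counts over all 12571 genes rose with the block, without the trend, with array weights and with the covariate. The member counts have to be read beside them. Genes at an unadjusted p under 0.05 (limma) numbered 409 in the main fit. They numbered 1276 with the block, 430 without the trend, 3368 with array weights and 1111 with the covariate. With single arrays left out they numbered 202 to 737, and some of these counts fell below that of the main fit. They were 501 without Eomes+ replicate 1, 306 without Eomes+ replicate 2 and 273 without Eomes- replicate 1. Genes called over the whole table numbered 17, 253 and 8 with the block, array weights and covariate and 0 otherwise. Members with a higher mean numbered 8 to 16 of 30 with single arrays left out (10 with all arrays), 16 without Eomes- replicate 3. The sign of the difference held under all alternatives for 11 of 30 members, among them Xbp1 (-0.76 to -0.35 log2), Manf (-0.52 to -0.27), Eif2ak3 (-0.83 to -0.21) and Derl1 (0.12 to 0.92), and turned at least once for 19; the cause was not tested. Same-numbered arrays did not meet the rule for pairing, the deviations of Eomes- replicate 2 being closer to those of Eomes+ replicate 1 (r = 0.302). Dim genes such as Chac1 are measured close to background.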
